A study of Papio anubis with 25 samples.

Results

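Saliva carries a set of secreted proteins that kill, bind or starve microbes. The genes of 6 of them were followed through all 25 libraries of the series: LPO (lactoperoxidase), LYZ (lysozyme), LTF (lactoferrin), DMBT1 (the salivary agglutinin, also called gp340), SLPI (secretory leukocyte protease inhibitor) and WFDC2 (a secreted inhibitor-like protein also known as HE4). They were chosen by name, as proteins of salivary defence, with earlier results of these data known, and are 6 of the 21287 genes in the table. All 6 passed the filter on low values. The libraries came from 5 olive baboons (Papio anubis), and each animal gave liver, pancreas and, from the left side, 3 salivary glands: parotid, submandibular and sublingual. Every group is thus 1 tissue with 5 libraries. No treatment or genetic change is given for any group. Baboons 1 to 4 were female and baboon 5 male, and their ages were not given in the sources used here. The series was built to compare amylase expression between salivary glands and digestive organs, and its tissue pairs serve here for the defence genes. Expression is given in TPM, a transcript level corrected for transcript length and relative to the whole library, so levels of different genes can be set side by side. The depth behind the values is unknown.

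As background, the 6 proteins act in different ways. LPO uses hydrogen peroxide, supplied in mucosa by the dual oxidases DUOX1 and DUOX2, to turn thiocyanate into an oxidant that stops bacterial growth. LYZ cuts the peptidoglycan of bacterial walls and is made by gland cells as well as by macrophages. LTF binds iron and is stored in neutrophil granules and secreted by glands. DMBT1 is a scavenger receptor cysteine-rich (SRCR) glycoprotein that clumps bacteria. SLPI and WFDC2 carry the whey acidic protein (WAP) domain: SLPI inhibits neutrophil elastase and other serine proteases, and the target of WFDC2 is less settled. Serous acini of the parotid and submandibular gland and the serous caps of the mainly mucous sublingual gland are among the textbook sources of several of these proteins in saliva.

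The labelled tissues were checked against marker genes first. Summed pancreatic acinar markers (6 genes) were 65355 to 135188 TPM in pancreas and at most 1905 TPM elsewhere, and summed hepatocyte markers (6 genes) were 49315 to 84811 TPM in liver and at most 1251 TPM elsewhere. Several gland libraries stood apart from others of their tissue in the genes of other cell types. Adipose markers (6 genes) summed to 21974 TPM in parotid 2, 6992 in submandibular 5 and 2814 in submandibular 2. Lymphoid markers (7 genes) reached 1002 TPM in parotid 5, against at most 73.4 in the other gland libraries, and macrophage markers (9 genes) summed to 1300.2 TPM in parotid 2 and 1584 in parotid 5. Skeletal muscle markers (7 genes) made up 97932 TPM of sublingual 2, and oral mucosa markers (7 genes) 115367 and 50607 TPM of sublingual 1 and 4. In the other direction, the salivary gene BPIFA2 was at 562 to 1414 TPM in every pancreas and liver library. How far any of this contributed to the members' levels was not tested. Results are therefore also given without the 5 libraries high in adipose, lymphoid or muscle genes (parotid 2 and 5, submandibular 2 and 5, sublingual 2) where that changes a call. This set was chosen after seeing the data. Apart from submandibular 5, its libraries are also among the lowest gland libraries in LPO and WFDC2. Leaving the set out thus raises the gland means of both genes, and the adjusted p values without it are descriptions.

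The summed level of the 6 genes, of which LYZ or WFDC2 was the largest in 14 of the 15 gland libraries, was uneven between libraries of the same gland. It came to 295 to 2031 TPM in parotid, 271 to 851 in submandibular and 46.6 to 20156 in sublingual gland. Liver reached 97.2 to 255 TPM and pancreas 85.8 to 263 TPM. Sublingual 5, the sublingual gland of the male, held the top of that range: its 6 genes made up 2.02% of the library, and LYZ alone 86.1% of the sum. Sublingual 2, the library high in muscle genes, held the bottom, below every pancreas and liver library. A lower level in a whole-tissue library can come from fewer cells of a type or from less RNA per cell, and these cannot be told apart.

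**Figure D1:**
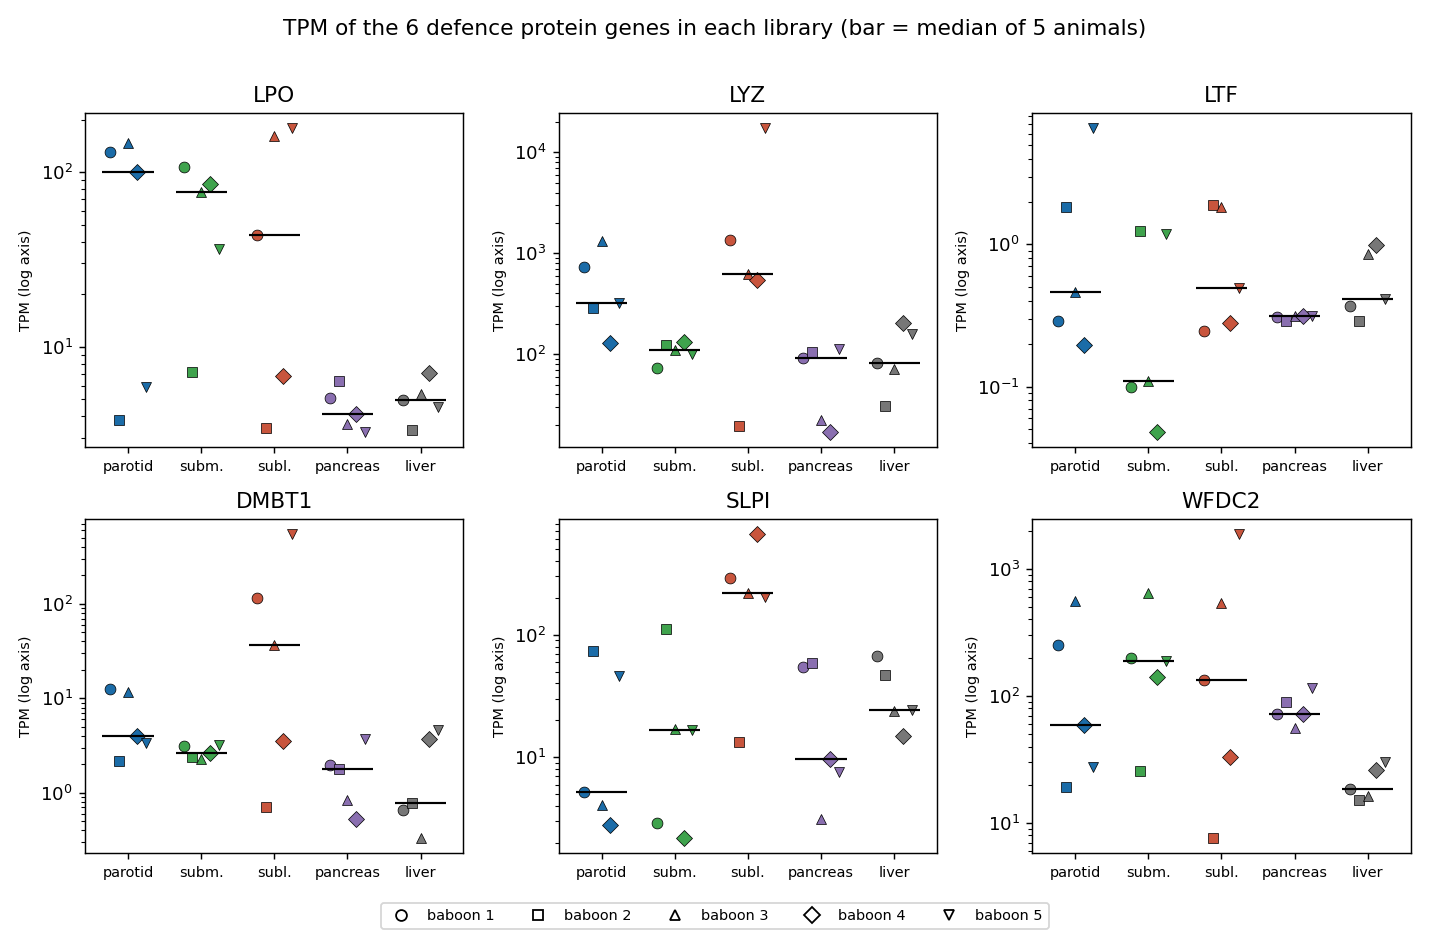
Each panel plots 1 gene, with TPM on a log axis and the 5 tissues along the bottom; every point is 1 library. LPO and WFDC2 reach over 100 TPM in gland libraries of each kind and LPO stays at 7.05 TPM or less in pancreas and liver, LYZ and DMBT1 peak in sublingual 5 (17351 and 547 TPM), SLPI is at 204 TPM or more in 4 sublingual libraries, and LTF stays at 6.57 TPM or less in all 25.

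Each member was compared between all 10 pairs of tissues within the same animals, with limma fitted to log2(TPM + 1) of 14991 genes. A gene was called when its p, adjusted by the Benjamini-Hochberg method over all 14991 genes, was under 0.05 and its log2 fold change at least 1 in size. Differences are given below as log2 fold changes of TPM + 1, in log2 units, the first tissue named minus the second. The calls fell in the comparisons with pancreas and liver, where 12 were made, all of them higher in salivary gland. Against pancreas, 4 of 6 members (LPO, LYZ, DMBT1 and SLPI) were called higher in sublingual gland, beside 6.97% of all genes tested. LPO was the 1 member called higher in submandibular gland than in pancreas, where 1.27% of all genes were. Between parotid and pancreas no member was called in either direction, against 3.82% of all genes, although 2 (LPO and LYZ) had an unadjusted p under 0.05.

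Against liver, 4 members (LPO, LYZ, DMBT1 and WFDC2) were called higher in sublingual gland, with a background of 5.93%. LPO and WFDC2 were called higher in submandibular gland (2.61% of all genes), and LPO alone in parotid (2.84%). LTF was called in none of the 10 comparisons. No member was called in either direction between parotid and submandibular gland (background 0%, 0 members with an unadjusted p under 0.05), between parotid and sublingual gland (0.113%, 2 members), between submandibular and sublingual gland (0.0667%, 3 members) or between pancreas and liver (17.5%, 1 member). With only the compared tissues in the fit, none of the 8 sublingual calls was made. Few genes of any kind were called between glands, so the counts of 0 there stand beside a low background.

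The members' median log2 fold change was 2.99 for sublingual gland against pancreas and 2.57 against liver, where the medians over all genes were 0.63 and 0.17. For parotid the members' medians were 1.04 against pancreas and 1.69 against liver, with 0.45 and 0.01 over all genes. For submandibular gland they were 0.76 and 0.39, with 0.17 and -0.27 over all genes. All 6 of these members' medians were above the median of all genes. The members were chosen with earlier results of these data known, so this is a description and not independent evidence of a direction. Between glands the members' medians were 0.28 for parotid against submandibular, -0.68 for parotid against sublingual and -1.52 for submandibular against sublingual gland, with 0.26, -0.17 and -0.44 over all genes. The comparisons share libraries: each gland was set against the same 5 pancreas and the same 5 liver libraries. TMM scaling of the values moved the all-gene median of sublingual gland against pancreas to 0.11 and that of submandibular gland against liver to 0.01. Under TMM, DMBT1 and SLPI were still called higher in sublingual gland than in pancreas, while LPO at 1.93 log2 units (adjusted p = 0.229) and LYZ at 2.89 log2 units (adjusted p = 0.0538) were not.

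**Figure D2:**
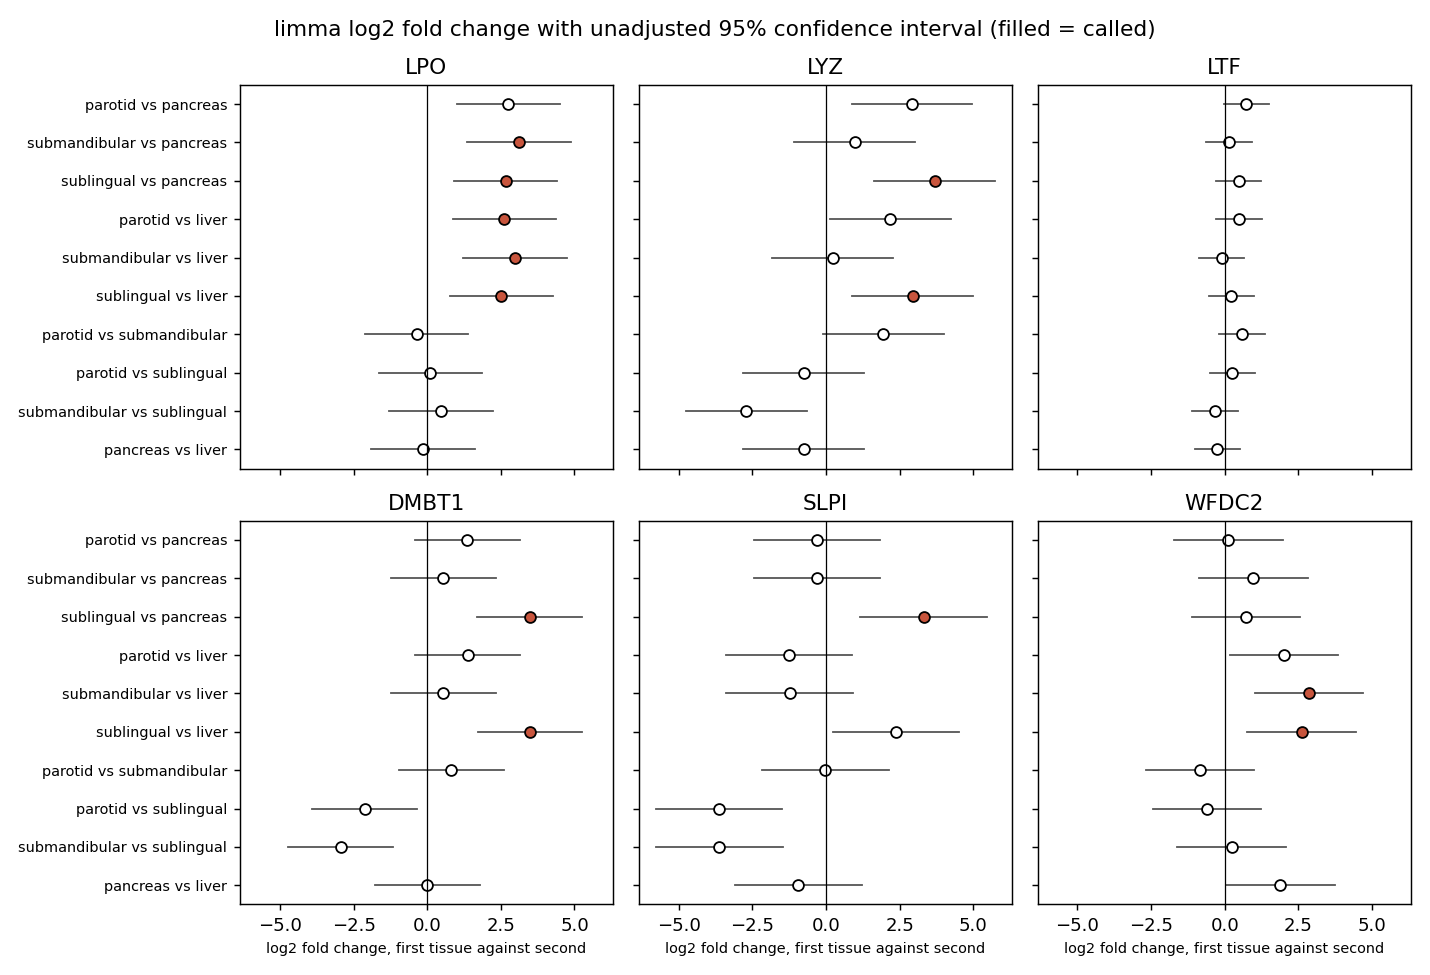
Fitted log2 fold changes of the 6 genes in the 10 tissue comparisons, with 95% confidence intervals; filled points were called and open points were not. The 12 called points are all comparisons of a gland with pancreas or liver and all lie above 0.

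LPO, the peroxidase, was the member called in the most comparisons, 5 of 10. In parotid it was at 129.9, 3.79, 148, 100.2 and 5.88 TPM in baboons 1 to 5. The submandibular values were 107, 7.15, 77.4, 85.3 and 36.4 TPM. In sublingual gland they were 43.9, 3.45, 161, 6.77 and 178 TPM. Each gland thus held libraries near or above 100 TPM beside others below 8 TPM: parotid 2 and 5, submandibular 2, and sublingual 2 and 4. Pancreas (3.24 to 6.37 TPM) and liver (3.35 to 7.05 TPM) were about as low as those 5 gland libraries (3.45 to 7.15 TPM). Ordered by mean log2(TPM + 1), LPO ran from submandibular (5.55 ± 1.52 SD) through parotid (5.19 ± 2.45) and sublingual gland (5.09 ± 2.46) to liver (2.57 ± 0.32) and pancreas (2.43 ± 0.32). The glands differed from each other by less than their SD, and so did liver and pancreas, whose order turned under TMM scaling; the step lay between sublingual gland and liver.

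LPO was higher in submandibular gland than in pancreas by 3.12 log2 units (SE 0.85, adjusted p = 0.0359) and than in liver by 2.98 log2 units (SE 0.85, adjusted p = 0.0158), in 5 of 5 animals each, and its submandibular libraries overlapped with neither. In parotid LPO exceeded liver by 2.62 log2 units (SE 0.85, adjusted p = 0.0396), also in 5 of 5 animals. Sublingual LPO was higher than pancreas by 2.66 log2 units (SE 0.85, adjusted p = 0.0495) and than liver by 2.52 log2 units (SE 0.85, adjusted p = 0.0451), each in 4 of 5 animals. Parotid against pancreas gave a fold of like size, 2.76 log2 units (SE 0.85, adjusted p = 0.0755), that was not called; without the 5 libraries it was 4.68 log2 units (adjusted p = 0.000276). It was called in 7 of 16 alternatives, among them the fit with only the compared tissues (SE 0.71, adjusted p = 0.00926). Each of the 5 LPO calls was lost when baboon 1 or baboon 3 was left out. The call against pancreas in submandibular gland was lost without baboon 1, 3 or 4 (adjusted p = 0.215, 0.196 and 0.147, in that order). That against liver was lost without baboon 1, 3 or 4 (adjusted p = 0.105, 0.0758 and 0.0529, in that order). The parotid call was lost without baboon 1, 3 or 4 (adjusted p = 0.203, 0.229 and 0.124, in that order). The sublingual calls were lost without baboon 1, 3, 4 or 5 (adjusted p = 0.183, 0.25, 0.0616 and 0.154, in that order) against pancreas and without baboon 1, 3 or 5 (adjusted p = 0.155, 0.253 and 0.155, in that order) against liver. Without the animal as a block, 4 of the calls were lost, with adjusted p = 0.0882 for submandibular against pancreas, 0.0852 for parotid against liver, and 0.0885 and 0.0892 for sublingual gland against pancreas and liver. Leaving out sublingual 5 alone also ended both sublingual calls, at 1.86 log2 units (adjusted p = 0.125) and 1.72 log2 units (adjusted p = 0.171).

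The low LPO libraries were also low in AQP5, the water channel of acinar cells. AQP5 was chosen after its values were seen and is the gene nearest to LPO in pattern over all libraries. AQP5 was at 5.40 TPM or less in parotid 2 and 5, submandibular 2 and sublingual 2 and 4, where LPO was at 3.45 to 7.15 TPM. In the other 10 gland libraries AQP5 was at least 40.5 TPM and LPO 36.4 to 178 TPM. BPIFA2, another of the gland epithelium markers, overlapped between these groups. It was at 507 to 1598 TPM in the low LPO libraries and 643 to 46591 TPM in the other 10. Over the 15 gland libraries LPO correlated with the summed gland epithelium markers (12 genes) at r = 0.82 on the log2 scale, and at 0.73 over 11 of them (without parotid 2 and 5, submandibular 5 and sublingual 2), a description of libraries that share animals and tissues.

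MPO (myeloperoxidase), the peroxidase of neutrophil granules and the gene next to LPO in the RefSeq order of protein-coding genes, followed the same pattern. In parotid MPO was at 17.4, 0.306, 29.2, 10.7 and 1.36 TPM in baboons 1 to 5. Submandibular MPO was 16.0, 0.565, 15.7, 11.9 and 4.76 TPM, and sublingual MPO 5.37, 0.685, 49.6, 0.898 and 13.1 TPM. MPO was therefore 7.36% to 30.9% of LPO in the gland libraries, and it was at most 0.731 TPM in pancreas and liver. MPO was higher in submandibular gland than in pancreas by 2.39 log2 units (SE 0.68, adjusted p = 0.0479) and in sublingual gland by 2.15 log2 units (SE 0.68, adjusted p = 0.048). Against liver it was higher in parotid by 2.31 log2 units (SE 0.68, adjusted p = 0.0223), in submandibular gland by 2.45 log2 units (SE 0.68, adjusted p = 0.0132) and in sublingual gland by 2.22 log2 units (SE 0.68, adjusted p = 0.0269). The other neutrophil markers in the table (CSF3R, CXCR2, FPR1 and S100A12) summed to 0.723 TPM or less in 9 of the 10 gland libraries with LPO over 36 TPM; the exception was sublingual 1, at 15.6 TPM. Whether reads of LPO were assigned to MPO was not tested.

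**Figure D3:**
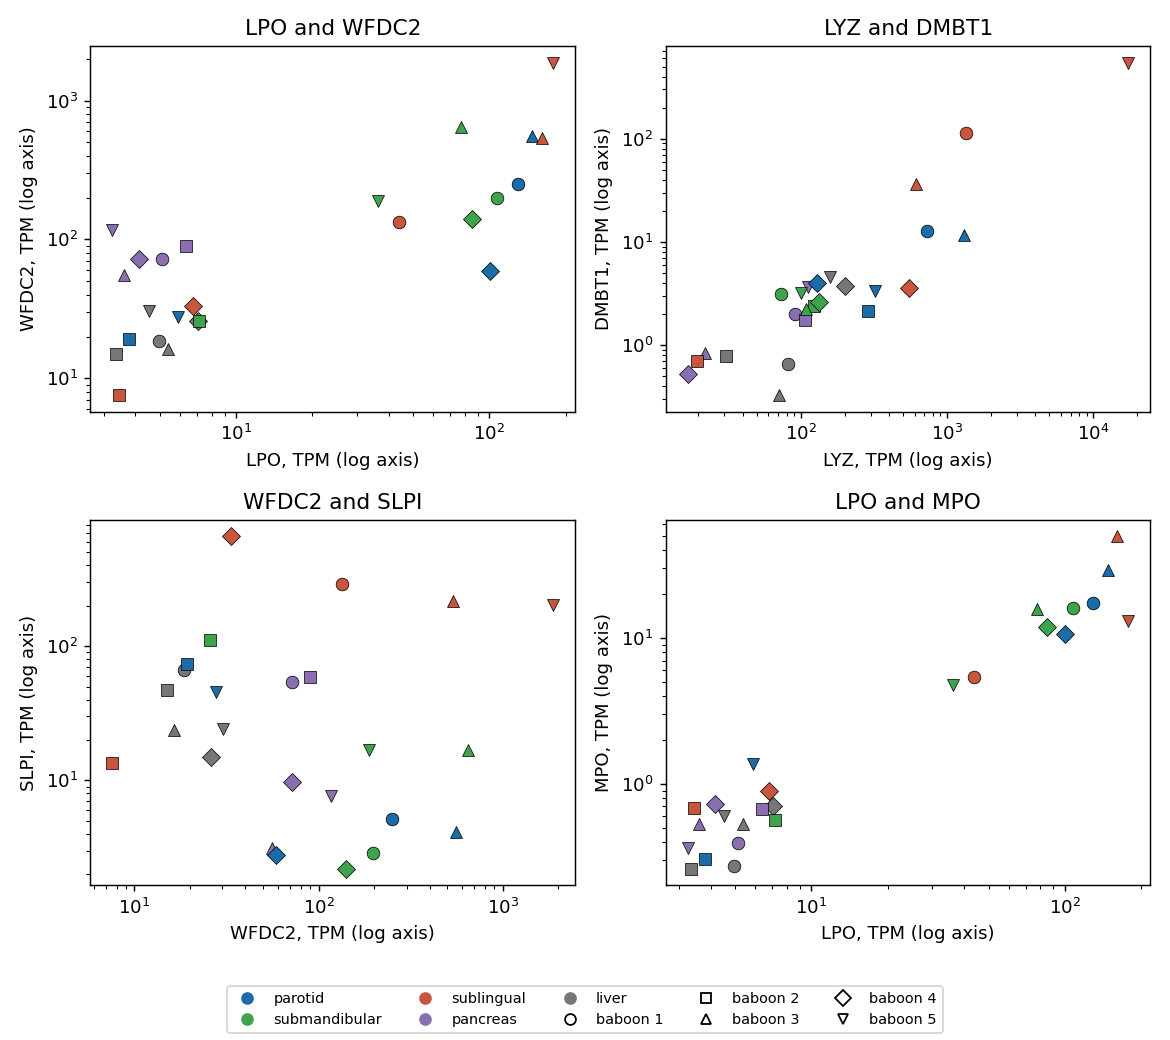
Scatter plots on log axes of TPM, 1 point per library, coloured by tissue and shaped by animal, for LPO with WFDC2, LYZ with DMBT1, WFDC2 with SLPI and LPO with MPO. Gland libraries with high LPO are also those with high MPO and high WFDC2, LYZ and DMBT1 rise together to sublingual 5, and SLPI and WFDC2 do not follow each other.

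Of the 12 other genes listed for the peroxidase system (peroxidases, dual oxidases and their maturation factors, thiocyanate and chloride channels), 12 were in the table and 8 were tested. The 4 with the highest mean level were ANO1, MPO, DUOXA1 and DUOX1. DUOX1, which makes hydrogen peroxide, was at 70.8 TPM in sublingual 1 and 21.3 in sublingual 4 and at most 0.590 TPM in the other 23 libraries. Its maturation factor DUOXA1 was at 116 and 33.4 TPM in the same libraries and at most 1.91 elsewhere. These are the sublingual libraries high in oral mucosa markers, and LPO in them was 43.9 and 6.77 TPM, below sublingual 3 and 5. DUOXA1 was called higher in sublingual gland than in pancreas, by 2.59 log2 units (SE 0.77, adjusted p = 0.0376), and so was MPO. CFTR, a channel that also passes thiocyanate, was called lower there, at -1.84 log2 units (SE 0.35, adjusted p = 0.00152). In submandibular gland against pancreas, ANO1 and MPO were called higher and none lower; ANO1, a calcium-gated chloride channel of acinar cells, was higher by 2.19 log2 units (SE 0.61, adjusted p = 0.0412). In parotid against pancreas, ANO1 was higher by 2.37 log2 units (SE 0.61, adjusted p = 0.0248) and CFTR lower, at -2.12 log2 units (SE 0.35, adjusted p = 0.000297). Against liver, 1 of the 8 was called higher in parotid (MPO), 2 in submandibular (CFTR and MPO) and 3 in sublingual gland (DUOX1, DUOXA1 and MPO), and none lower; of all genes 2.84%, 2.61% and 5.93% were called higher. Against pancreas the background was 1.27% higher in submandibular gland, 6.97% higher in sublingual gland and 3.82% either way in parotid. Of the 1419 genes called in either direction between sublingual gland and pancreas, 1045 were higher in sublingual gland.

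LYZ was the most abundant member in 10 of the 15 gland libraries. Its parotid values were 729, 289.5, 1311, 128 and 322 TPM in baboons 1 to 5. In submandibular gland LYZ was 73.4, 123, 109, 133 and 100.1 TPM, the narrowest spread of the 5 tissues on the log2 scale (6.73 ± 0.33 SD). In sublingual gland it was 1341, 19.6, 617, 549 and 17351 TPM. Sublingual 2 and 5 were the extremes of the gland libraries, and LYZ was the fifth most abundant gene of sublingual 5. Pancreas held 91.2, 106, 22.2, 16.9 and 112 TPM and liver 81.5, 30.9, 71.5, 202 and 158 TPM, so LYZ, unlike LPO, was present at over 15 TPM in all 25 libraries. Macrophage markers summed to 317 to 717 TPM in liver and 19.2 to 34.4 TPM in pancreas, and their part in the LYZ level was not tested; over the 15 gland libraries LYZ correlated with their sum at r = 0.15 (0.27 over those 11 libraries).

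By mean log2(TPM + 1), LYZ was ordered sublingual (9.44 ± 3.48 SD), parotid (8.68 ± 1.29), submandibular (6.73 ± 0.33), liver (6.5 ± 1.05) and pancreas (5.76 ± 1.30), and no neighbouring pair in that order was called. LYZ was higher in sublingual gland than in pancreas by 3.69 log2 units (SE 0.99, adjusted p = 0.0233) and than in liver by 2.94 log2 units (SE 0.99, adjusted p = 0.0446), in 4 of 5 animals each. In parotid it exceeded pancreas in 5 of 5 animals without overlap of the groups, but the fold of 2.92 log2 units (SE 0.99, adjusted p = 0.114) was not called; without the 5 libraries it was 3.71 log2 units (adjusted p = 0.0137). It was called in 5 of 16 alternatives, among them the fit with only the compared tissues (SE 0.73, adjusted p = 0.00783). Parotid LYZ against liver was 2.18 log2 units (SE 0.99, adjusted p = 0.165), not called, and 2.96 log2 units (adjusted p = 0.0135) without the 5 libraries. With only the compared tissues in the fit it was called (SE 0.74, adjusted p = 0.0291). Submandibular LYZ differed from pancreas by 0.98 (95% interval -1.07 to 3.03) and from liver by 0.23 (-1.82 to 2.28; below 0, at -0.20, without baboon 2), not called. The sublingual calls were lost without baboon 1, 3, 4 or 5 (adjusted p = 0.115, 0.114, 0.1 and 0.0914, in that order) against pancreas and without baboon 1, 3, 4 or 5 (adjusted p = 0.195, 0.134, 0.0739 and 0.208, in that order) against liver. Without the animal as a block the call against liver was lost (adjusted p = 0.0605). Without sublingual 5 the folds were 2.62 log2 units (adjusted p = 0.0587) and 1.87 log2 units (adjusted p = 0.178), and without sublingual 1 and 4 they were 3.41 log2 units (adjusted p = 0.134) and 2.67 log2 units (adjusted p = 0.164).

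Of 9 other lysozyme family genes listed, 7 were in the table and 1 (SPACA5, a sperm acrosome protein) passed the filter. SPACA5 was at most 5.83 TPM in any library and was not called in any comparison. The other 3 with the highest mean, SPACA3, LYG1 and LYG2, were at most 1.66 TPM, far below LYZ in the same tissues.

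DMBT1, the agglutinin, was highest and lowest in the same gland libraries as LYZ. Parotid DMBT1 was 12.7, 2.17, 11.8, 4.02 and 3.36 TPM in baboons 1 to 5, and submandibular DMBT1 3.15, 2.38, 2.26, 2.66 and 3.22 TPM. In sublingual gland it was 114, 0.706, 36.8, 3.57 and 547 TPM, from the lowest gland library, sublingual 2, to the highest, sublingual 5. In pancreas DMBT1 was at 0.526 to 3.67 TPM and in liver at 0.331 to 4.62 TPM. The 3 sublingual libraries above 30 TPM, those of baboons 1, 3 and 5, were above every other library of the series, and sublingual 2 and 4 lay within the range of the other tissues. Across the 15 gland libraries DMBT1 and LYZ correlated at r = 0.89, and at 0.91 over those 11 libraries.

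DMBT1 was higher in sublingual gland than in pancreas by 3.48 log2 units (SE 0.86, adjusted p = 0.014), in 4 of 5 animals, and than in liver by 3.49 log2 units (SE 0.86, adjusted p = 0.00576), in 3 of 5 animals. These calls were lost without baboon 1, 3 or 5 (adjusted p = 0.114, 0.0909 and 0.0636, in that order) against pancreas and without baboon 1 or 3 (adjusted p = 0.0789 and 0.0573, in that order) against liver. With only the compared tissues in the fit both were lost (adjusted p = 0.0575 and 0.0665). Without sublingual 5 they remained called, at 2.51 log2 units (adjusted p = 0.0371) and 2.52 log2 units (adjusted p = 0.0249). Parotid DMBT1 differed from liver by 1.37 log2 units (SE 0.86, adjusted p = 0.338) and from sublingual gland by -2.12 log2 units (SE 0.86, adjusted p = 0.409), neither called. Without the 5 libraries both were, at 2.44 log2 units (adjusted p = 0.0221) and -2.01 log2 units (adjusted p = 0.0496). Of 16 alternatives only this 1, chosen after seeing the data, called the difference from sublingual gland. Between glands DMBT1 was lower in submandibular than in sublingual gland in the fit, at -2.94 log2 units (SE 0.86, adjusted p = 0.195), not called with all libraries; without baboon 2 it was -3.92 log2 units (adjusted p = 0.02) and without the 5 libraries -3.39 log2 units (adjusted p = 0.00347). LYZ did likewise: its submandibular difference from sublingual gland was -2.71 log2 units (SE 0.99, adjusted p = 0.267) with all libraries, -4.03 log2 units (adjusted p = 0.0179) without baboon 2 and -3.46 log2 units (adjusted p = 0.0053) without the 5 libraries. Without sublingual 5 both differences were smaller and not called, at -1.97 log2 units (adjusted p = 0.186) for DMBT1 and -1.64 log2 units (adjusted p = 0.344) for LYZ. By mean log2(TPM + 1) the order for DMBT1 was sublingual (4.83 ± 3.39 SD), parotid (2.71 ± 0.96), submandibular (1.89 ± 0.17), pancreas (1.35 ± 0.63) and liver (1.34 ± 0.95), with no neighbouring pair called.

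The 8 other SRCR family genes listed were all tested. None was called in any comparison of a gland with pancreas or between glands. Against liver, SSC4D was called lower in all 3 glands and CD5L, a macrophage protein, in submandibular and sublingual gland. Most genes of any kind called between a gland and liver were lower in the gland. The 4 with the highest mean were MARCO, CD5L, CD6 and CD5, genes of macrophages and T cells; MARCO reached 350.4 TPM in 1 parotid library and was at most 4.22 TPM in the other 4 tissues.

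LTF, the iron-binding lactoferrin, was at 6.57 TPM or less in every library. It was 0.290, 1.82, 0.461, 0.196 and 6.57 TPM in the parotid libraries of baboons 1 to 5. In submandibular gland the values were 0.0998, 1.24, 0.110, 0.0477 and 1.18 TPM and in sublingual gland 0.246, 1.89, 1.84, 0.279 and 0.494 TPM. LTF was above 1 TPM in 6 of the 25 libraries, all of salivary gland: parotid 2 and 5, submandibular 2 and 5, and sublingual 2 and 3. Of these, 5 are the libraries high in adipose, lymphoid or muscle genes. Pancreas held 0.290 to 0.316 TPM and liver 0.287 to 0.990 TPM. Over the 15 gland libraries LTF correlated with the summed macrophage markers at r = 0.73 and with LPO at r = -0.58. Over those 11 libraries the values were 0.58 and -0.11. With summed lymphoid, adipose and neutrophil markers r was 0.62, 0.53 and -0.11 over the 15, and 0.55, 0.59 and 0.55 over the 11. Hepatocyte and pancreatic acinar markers gave 0.70 and 0.69 over the 11. The neutrophil sum includes MPO, which followed LPO. The other neutrophil markers were highest, at 18.4 TPM, in parotid 5, where LTF was highest too. The part of other cell types in the LTF level was not tested.

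The fitted differences in LTF were small. Parotid exceeded pancreas by 0.73 log2 units (SE 0.37, adjusted p = 0.289), and the intervals of the other comparisons of a gland with pancreas were -0.63 to 0.91 for submandibular and -0.30 to 1.24 for sublingual gland. LTF entered the test through its parotid mean of 1.87 TPM, since it averaged under 1 TPM in the other 4 tissues, and a difference between values this low is compressed on the log2(TPM + 1) scale. The order by mean log2(TPM + 1) was parotid (1.12 ± 1.12 SD), sublingual (0.86 ± 0.61), liver (0.64 ± 0.28), submandibular (0.53 ± 0.56) and pancreas (0.39 ± 0.01), and no neighbouring pair was called. Of the 4 genes listed as transferrin family members and lactoferrin receptors, TF (transferrin, the plasma iron carrier) was at 2169 ± 838 TPM (SD, n = 5) in liver and called lower in each gland, at -6.09 log2 units (SE 0.66, adjusted p = 1.41e-07) in parotid, -5.98 log2 units (SE 0.66, adjusted p = 1.82e-07) in submandibular and -5.30 log2 units (SE 0.66, adjusted p = 1.44e-06) in sublingual gland. MELTF was called higher in parotid than in liver, and LRP1 and ITLN1 were called in no comparison involving a gland.

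SLPI, the elastase inhibitor, had its highest levels in sublingual gland, at 290.4, 13.4, 219, 658 and 204 TPM in baboons 1 to 5. Parotid SLPI was 5.18, 74.1, 4.12, 2.80 and 45.7 TPM and submandibular SLPI 2.90, 112, 16.9, 2.19 and 16.8 TPM. The 4 sublingual libraries other than sublingual 2 were above all other 21 libraries. In parotid and submandibular gland the highest values were in parotid 2 and 5 and submandibular 2, libraries high in adipose or lymphoid genes, while parotid 1, 3 and 4 were at 5.18 TPM or less. Submandibular 5, with more adipose marker TPM (6992) than submandibular 2 (2814), had SLPI at 16.8 TPM, level with submandibular 3 (16.9 TPM, adipose markers 127 TPM). Pancreas, at 54.0, 58.9, 3.16, 9.65 and 7.59 TPM, and liver, at 66.9, 46.8, 23.7, 15.01 and 24.1 TPM, were thus above those 3 parotid libraries in 9 of 10 cases. Among the sublingual libraries, SLPI was highest in sublingual 4 and next in sublingual 1, the libraries high in oral mucosa markers, but it was above 200 TPM in sublingual 3 and 5 too.

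SLPI was higher in sublingual gland than in pancreas by 3.32 log2 units (SE 1.04, adjusted p = 0.0454), in 4 of 5 animals. The call was lost without baboon 1, 3, 4 or 5 (adjusted p = 0.111, 0.221, 0.173 and 0.139, in that order); without sublingual 1 and 4 the fold was 1.92 log2 units (adjusted p = 0.442) and without sublingual 5 it was 3.30 log2 units (adjusted p = 0.0616). Against liver the sublingual fold was 2.38 log2 units (SE 1.04, adjusted p = 0.131) with all libraries, not called, and 3.41 log2 units (adjusted p = 0.0056) without baboon 2 or 3.57 log2 units (adjusted p = 0.000575) without the 5 libraries. Over all 16 alternatives this fold ranged from 0.98 to 3.75 log2 units and was called in 4. The largest fitted gaps between glands among the members were those of SLPI: -3.63 log2 units (SE 1.04, adjusted p = 0.173) for parotid and -3.62 log2 units (SE 1.04, adjusted p = 0.185) for submandibular against sublingual gland, neither called. Without baboon 2 they were -5.14 log2 units (adjusted p = 0.0034) and -5.26 log2 units (adjusted p = 0.00318), and without the 5 libraries -6.09 log2 units (adjusted p = 0.000192) and -5.79 log2 units (adjusted p = 0.000233). Other alternatives made these gaps smaller. Over all 16 they ranged from -6.09 to -2.23 log2 units for parotid and from -5.79 to -2.21 for submandibular gland, each called in 3.

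In that smaller set SLPI was also called lower than liver. The folds were -2.52 log2 units (adjusted p = 0.0118) in parotid and -2.22 log2 units (adjusted p = 0.0199) in submandibular gland. All libraries gave -1.25 log2 units (SE 1.04, adjusted p = 0.493) and -1.23 log2 units (SE 1.04, adjusted p = 0.489). TMM factors, by which values are divided, were 0.511, 1.063 and 0.35 in the parotid libraries kept. They were 0.519, 0.594 and 0.453 in the submandibular libraries kept, and 1.107 to 1.288 in liver. Parotid 2, parotid 5 and submandibular 2, the libraries with the highest SLPI in their glands, had factors of 2.403, 2.494 and 2.559. The smaller set was not refitted with scaling, so the part of scaling in these folds and those between glands was not tested. By mean log2(TPM + 1) over all libraries the order was sublingual (7.37 ± 2.08 SD), liver (4.99 ± 0.83), pancreas (4.05 ± 1.71), submandibular (3.75 ± 2.08) and parotid (3.74 ± 1.99), with no neighbouring pair called.

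WFDC2, the other WAP protein, did not share the SLPI pattern and came closer to that of LPO. Its parotid values were 252, 19.2, 556, 58.9 and 27.7 TPM in baboons 1 to 5. Submandibular gland held 198, 25.7, 645, 140.3 and 188 TPM and sublingual gland 134, 7.59, 539.6, 33.4 and 1876 TPM. The 5 gland libraries under 34 TPM were the same 5 in which LPO was under 8 TPM. Unlike LPO, WFDC2 in pancreas was above these low gland libraries, at 72.1, 89.6, 55.8, 72.1 and 116 TPM, and liver was lower, at 18.6, 15.04, 16.3, 26.0 and 30.4 TPM. Over the gland libraries WFDC2 correlated with LPO at r = 0.89 and with the summed gland epithelium markers at r = 0.85, but with SLPI at r = -0.07. Over those 11 libraries the values were 0.80, 0.76 and -0.08.

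WFDC2 was higher than in liver by 2.86 log2 units (SE 0.89, adjusted p = 0.0281) in submandibular gland, in 5 of 5 animals, and by 2.62 log2 units (SE 0.89, adjusted p = 0.0471) in sublingual gland, in 4 of 5. The submandibular call was lost without baboon 1, 3 or 4 (adjusted p = 0.122, 0.171 and 0.0872, in that order). The sublingual call was lost without baboon 1, 3, 4 or 5 (adjusted p = 0.152, 0.231, 0.0618 and 0.175, in that order), and it stood at 1.65 log2 units (adjusted p = 0.186) without sublingual 5 and 2.50 log2 units (adjusted p = 0.0858) under TMM scaling. Without the animal as a block both were lost (adjusted p = 0.07 and 0.102). Parotid against liver gave 2.01 log2 units (SE 0.89, adjusted p = 0.153), not called, and 3.64 log2 units (adjusted p = 0.00111) without the 5 libraries. It was called in 4 of 16 alternatives, among them the fit with only the compared tissues (SE 0.72, adjusted p = 0.0417). By mean log2(TPM + 1) the order was submandibular (7.28 ± 1.65 SD), sublingual (7.05 ± 3.09), parotid (6.44 ± 2.05), pancreas (6.32 ± 0.39) and liver (4.43 ± 0.42), with no neighbouring pair called. Against pancreas no gland was called for WFDC2: the folds were 0.12 log2 units (SE 0.89, adjusted p = 0.953) in parotid, 0.97 log2 units (SE 0.89, adjusted p = 0.807) in submandibular and 0.73 log2 units (SE 0.89, adjusted p = 0.563) in sublingual gland, and the parotid and sublingual values fell below 0 under TMM scaling, at -0.31 and -0.07. Without the 5 libraries the sublingual value was called higher, at 1.69 log2 units (adjusted p = 0.0479). Of 16 alternatives only this 1 made the call. It was chosen after seeing the data and differs from the removal of 4 libraries only in submandibular 2, which is outside the comparison. Pancreas exceeded liver in 5 of 5 animals without overlap, by 1.89 log2 units (SE 0.89, adjusted p = 0.161), not called. That SE rests on a spread shared with the gland libraries. With only pancreas and liver in the fit the same fold had an SE of 0.17 (adjusted p = 4.67e-05) and was called. With the 5 gland libraries left out of the shared spread it was 1.89 log2 units (adjusted p = 0.0237).

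SLPI and WFDC2 were in different proportion in the median library of each gland. The median ratio of WFDC2 to SLPI was 21.0 in parotid and 38.1 in submandibular gland, against 0.568 in sublingual gland, 7.48 in pancreas and 0.690 in liver, with ranges that overlapped between all glands; the ratio was not tested. In the RefSeq gene order 8 protein-coding genes lie between SLPI and WFDC2. Of 14 other WAP domain genes listed, all 14 were in the table, 3 passed the filter and none was called in any comparison. PI3 (elafin, another elastase inhibitor) was at 367, 2.36, 12.5, 74.1 and 1.23 TPM in sublingual gland, highest in sublingual 1 and 4, and at most 16.2 TPM elsewhere. WFDC1 was at most 37.0 TPM in any library, and WFDC12 and WFDC3 stayed at 5.31 TPM or less.

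**Figure D4:**
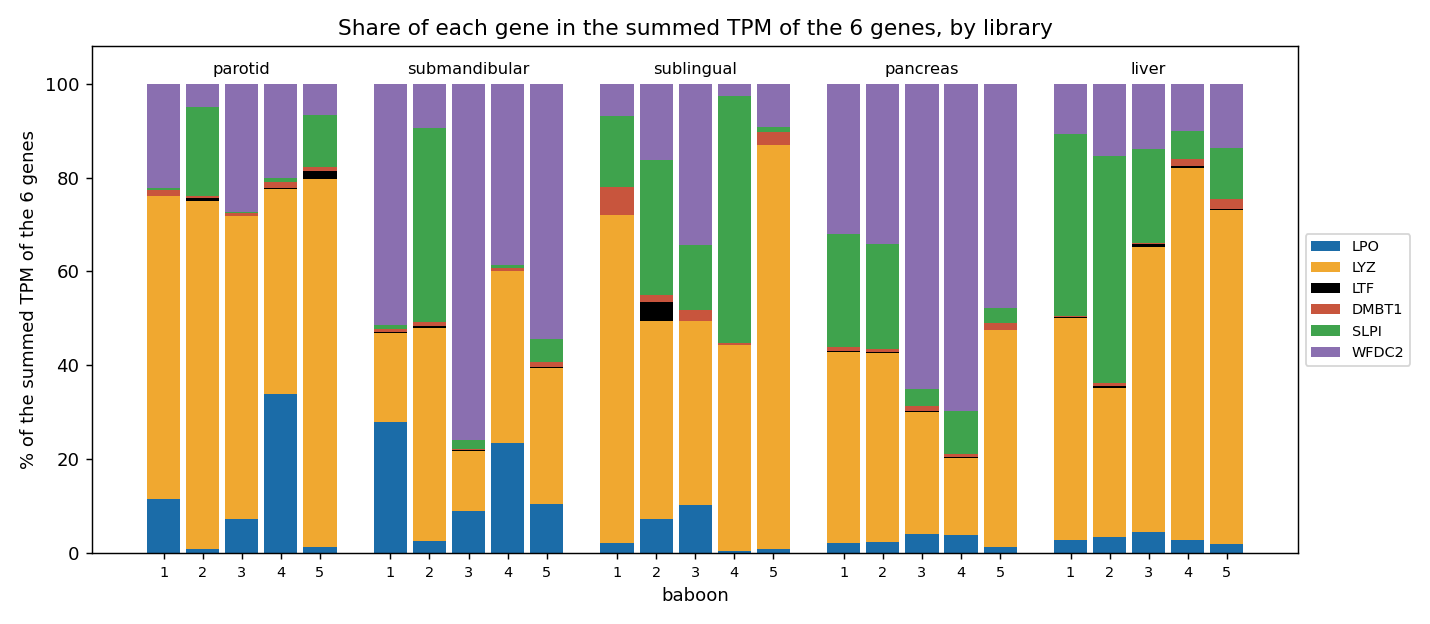
Stacked bars give the share of each of the 6 genes in their summed TPM, in percent, for the 25 libraries grouped by tissue. LYZ is the largest share in all 5 parotid libraries and 86.1% in sublingual 5, WFDC2 is the largest in 4 submandibular and 3 pancreas libraries, and SLPI is the largest in sublingual 4 (52.6%).

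For each member, the genes of most similar pattern were sought among 6161 genes that averaged at least 10 TPM in a tissue, by Pearson's r of log2(TPM + 1); r is a description over libraries that share animals and tissues. Over all 25 libraries the nearest to LPO were AQP5 (r = 0.976), MPO (r = 0.974) and SOX10 (r = 0.965), and over the 15 gland libraries KIAA1324 (r = 0.974), AQP5 (r = 0.961) and MPO (r = 0.959). For WFDC2 they were SCGN (r = 0.930), SMIM22 (r = 0.927) and LRRC26 (r = 0.911) over 25 and TMC4 (r = 0.962), SMIM22 (r = 0.958) and SCGN (r = 0.954) over 15. LYZ was nearest to DMBT1 (r = 0.895), BPIFB1 (r = 0.868) and FAM3D (r = 0.826) over 25 libraries, and to DMBT1 (r = 0.888), ARHGEF19 (r = 0.846) and KCNMA1 (r = 0.845) over 15. DMBT1 had BPIFB1 (r = 0.922), MUC15 (r = 0.914) and LYZ (r = 0.895), and in glands MTUS2 (r = 0.939), BPIFB1 (r = 0.937) and MUC15 (r = 0.905). LYZ and DMBT1 were thus among each other's closest genes over 25 libraries, and both had BPIFB1, a secreted protein of mucosal glands, beside them. BPIFB1 itself was at 2194, 15.9, 3203, 137 and 16725 TPM in sublingual gland, highest in sublingual 5 and lowest in sublingual 2, as were LYZ and DMBT1. SLPI was nearest to SCAND1 (r = 0.865), WASL (r = 0.852) and CHMP2A (r = 0.835) over 25 and to SCAND1 (r = 0.935), WASL (r = 0.934) and GNG5 (r = 0.925) over 15, none of them a secreted defence gene. LTF was nearest to ICAM2 (r = 0.852), UCP2 (r = 0.848) and LY86 (r = 0.848) over 25, which include the leukocyte gene LY86, and to ALPL (r = 0.936), RERE (r = 0.899) and LY86 (r = 0.888) over 15.

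A wider list of 29 secreted mucosal defence genes was read beside the members; 25 were in the table and 24 were tested. Against pancreas, 2 were called higher in parotid (CHI3L1 and HTN1), 6 in submandibular and 11 in sublingual gland, and none lower. Of all genes tested, 1.27% were called higher in submandibular and 6.97% in sublingual gland, and 3.82% in either direction in parotid. Against liver, 2, 6 and 6 were called higher in the same order, beside 2.84%, 2.61% and 5.93% of all genes, and 2 lower in each gland (ANG and HAMP, both made by hepatocytes). Over all 14991 genes, 2064, 2474 and 2316 were called in either direction against liver in the same order. Of these, 425, 391 and 889 were higher in gland, so most were lower, and the 2 lower calls stand beside that background. The 4 with the highest mean were ZG16B, BPIFA2, PIP and S100A9. BPIFA2, a salivary protein of the BPI fold family, was at 46591, 1044, 35896, 36518 and 28937 TPM in submandibular gland and 643 to 1598 TPM in sublingual gland, and it was the 1 gene of the list called between glands, higher in submandibular than in sublingual gland by 4.08 log2 units (SE 0.76, adjusted p = 0.0415). ZG16B, a lectin-like secretory protein, was called higher in sublingual gland than in pancreas by 3.48 log2 units (SE 1.05, adjusted p = 0.0395), and PIP higher in submandibular gland than in liver by 3.12 log2 units (SE 0.91, adjusted p = 0.0184). S100A9, a calprotectin subunit of neutrophils and squamous epithelium, was at 31556 and 44192 TPM in sublingual 1 and 4, the libraries high in oral mucosa markers, and at most 416 TPM in the other 23. The list was chosen with results of these data known and is not independent evidence of a direction.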

How the data were processed

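RNA from frozen sections of 5 tissues of 5 baboons was sequenced as paired reads, 25 libraries, per the labels' protocols. The deposited values are TPM per gene, which the authors made with kallisto, per the name of the deposited table; version, index and genome build are not given in the sources used here. No counts were used, so depth is unknown and precision rests on the spread over animals. Libraries were grouped by tissue and animal from the labels, and libraries of 1 number come from 1 animal. Same-animal deviations from the tissue means correlated at a mean r of 0.161. By pair of tissues the mean ran from -0.046 (sublingual and pancreas) to 0.552 (parotid and submandibular gland). Different animals gave -0.035, but centring on tissue means ties that value to the same-animal one, so it is no separate check. The animal was a block in limma 3.58.1 (R 4.3.3, eBayes with trend) on log2(TPM + 1), fitted to genes averaging at least 1 TPM in a tissue; log2 fold changes understate low genes. TMM and median-of-ratios factors were computed from the TPM values. The script was tested on simulated data. The members and lists were chosen with earlier results of these data known. All 6 members were named in full, up to 4 genes per list by mean level and 3 per member by likeness; the other genes named (such as CFTR, SSC4D or AQP5) were chosen after their values were seen. RefSeq (Panubis1.0) gave names and gene order only. Alternatives were the block, scaling, filter, pseudocount, tissues in the fit and left-out libraries; leaving out 5 libraries, and sublingual 5, were chosen after seeing the data.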

Additional observations from a re-analysis of the deposited data

Results flagged for a closer look

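One value lay far from its group by Dixon's test over the 30 groups of 5 libraries (6 genes in 5 tissues): LTF in pancreas 2, at 0.290 TPM, was the lowest pancreas library, with a gap of 0.713 of the group's range against a critical value of 0.71. The pancreas values span only 0.290 to 0.316 TPM, and chance marks about 1 in 20 groups.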

How the results depend on the processing

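Over the alternatives, 731 of 904 refits of a member kept their sign and their side of the threshold, 83 lost a call, 44 gained one and 46 changed sign; none of the 12 called folds changed sign. Each of those 12 calls was lost under at least 3 alternatives. For submandibular gland against pancreas, 611 genes were called in either direction as deposited and 1307 under TMM scaling. For sublingual gland against liver the numbers were 2316 and 3040. In the refits other than scaling, calls over all genes were not counted, so the members called there have no background beside them. Without the replicate block (animal not paired), the members called numbered 0 for submandibular against pancreas, 0 for parotid against liver, 1 for submandibular against liver and 1 for sublingual against liver. With only the compared tissues in the fit, the members called numbered 2 for parotid against pancreas, 0 for sublingual against pancreas, 3 for parotid against liver, 0 for sublingual against liver and 1 for pancreas against liver. Under TMM scaling, the members called numbered 0 for submandibular against pancreas, 2 for sublingual against pancreas and 2 for sublingual against liver. There the sign turned for WFDC2 parotid against pancreas -0.31, WFDC2 sublingual against pancreas -0.07 and LPO pancreas against liver 0.43. Under median-of-ratios scaling, the members called numbered 0 for submandibular against pancreas, 2 for sublingual against pancreas and 0 for parotid against liver. There the sign turned for WFDC2 parotid against pancreas -0.36, WFDC2 sublingual against pancreas -0.06 and LPO pancreas against liver 0.45. With a pseudocount of 0.1, the sign turned for LTF submandibular against pancreas -0.02. Without the filter on low values, the members called numbered 0 for submandibular against pancreas, 2 for sublingual against pancreas, 0 for parotid against liver, 1 for submandibular against liver and 1 for sublingual against liver. Without 4 libraries (parotid 2 and 5, submandibular 5, sublingual 2), the members called numbered 2 for parotid against pancreas, 5 for parotid against liver, 1 for parotid against sublingual and 3 for submandibular against sublingual. There the sign turned for LPO parotid against submandibular 1.08, WFDC2 parotid against submandibular 0.23, WFDC2 parotid against sublingual 0.02 and WFDC2 submandibular against sublingual -0.22. Without sublingual 1 and 4, the members called numbered 1 for parotid against pancreas and 2 for sublingual against pancreas. There the sign turned for LPO parotid against sublingual -0.97, LPO submandibular against sublingual -0.61 and WFDC2 submandibular against sublingual -0.50. Without those 4 and submandibular 2, the members called numbered 2 for parotid against pancreas, 5 for parotid against liver, 2 for parotid against sublingual, 3 for submandibular against sublingual and 1 for pancreas against liver. There the sign turned for LPO parotid against submandibular 0.47 and WFDC2 parotid against sublingual 0.07. Leaving out 1 animal, or sublingual 5 alone, gave members called of 0 to 2 for parotid against pancreas, 0 to 1 for submandibular against pancreas, 0 to 4 for sublingual against pancreas, 0 to 2 for parotid against liver, 0 to 2 for submandibular against liver, 0 to 5 for sublingual against liver, 0 to 1 for parotid against sublingual and 0 to 3 for submandibular against sublingual. Folds whose sign turned when 1 animal or sublingual 5 was left out ranged over SLPI parotid against pancreas -1.0 to 0.40, WFDC2 parotid against pancreas -0.67 to 0.69, LTF submandibular against pancreas -0.02 to 0.26, SLPI submandibular against pancreas -0.90 to 0.58, WFDC2 sublingual against pancreas -0.24 to 1.76, LTF parotid against liver -0.01 to 0.78, LTF submandibular against liver -0.34 to 0.09, LYZ submandibular against liver -0.20 to 0.45 and LTF sublingual against liver -0.02 to 0.43. The others ranged over LPO parotid against submandibular -0.68 to 0.16, SLPI parotid against submandibular -0.37 to 0.43, LPO parotid against sublingual -0.79 to 1.31, LTF parotid against sublingual -0.26 to 0.56, LYZ parotid against sublingual -1.91 to 0.48, WFDC2 parotid against sublingual -1.07 to 0.75, LPO submandibular against sublingual -0.29 to 1.26, WFDC2 submandibular against sublingual -0.21 to 1.21 and DMBT1 pancreas against liver -0.20 to 0.42. In the main fit each gene has 1 spread shared by all 5 tissues, so its SE is the same in every comparison. The tissues' own SDs were unlike, for LPO 0.32 in pancreas and 2.46 in sublingual gland. With only the compared tissues in the fit, the SE of DMBT1 in sublingual gland against pancreas went from 0.86 to 0.98. That of WFDC2 in pancreas against liver went from 0.89 to 0.17. Beyond this, and fewer libraries in the fits that leave some out, the cause of these changes was not tested. Unknown depth limits what can be said of LTF, near 1 TPM or below.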
